A study of Arabidopsis thaliana with 2 samples.

Results

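The CYP71B subfamily of Arabidopsis thaliana cytochromes P450 was described in seedlings of the C24 wild type and of the ros1-1 mutant. The members were the genes whose symbol in the array annotation starts with CYP71B, that have a probe set naming no other gene, and whose signal reached a floor of 132 on at least 1 array. Of 19 CYP71B genes with such a probe set, 10 reached this floor and 9 did not, among 7464 measured genes of 13356 with a single-gene probe set in the whole series. Total RNA of 15-day seedlings, grown on the standard nutrient medium MS at 22 °C with 16 h of light and 8 h of darkness, was hybridised to Affymetrix arrays as biotin-labelled cRNA. The C24_WT array held RNA of the unmutated accession C24, and the ros1-1 array held RNA of plants with a mutation in ROS1, in the C24 background per the series' design text. ROS1 itself carried no name in the array annotation, so the label of the mutant array could not be checked against it. There was 1 array for each genotype, so no test was possible, and each difference below compares these 2 arrays, not the genotypes. A whole seedling mixes tissues, and fewer cells of a type and less RNA per cell cannot be told apart in it.

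Cytochromes P450 are heme enzymes that insert an oxygen atom into small molecules, with electrons supplied by a reductase at the endoplasmic reticulum. The CYP71 family is large in plants and serves mainly in specialised metabolism, and many of its genes lie in tandem arrays of recent copies. The best-known CYP71B enzyme of Arabidopsis is CYP71B15, also called PAD3, which makes the antimicrobial compound camalexin. ROS1 is a DNA glycosylase that removes methylated cytosines and so counters silencing of genes by DNA methylation.

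The gene table holds 37 CYP71B genes, 18 of them in a stretch of chromosome 3 with locus codes AT3G26150 to AT3G26330. This stretch contributed 7 of the 10 members, in locus order CYP71B22, CYP71B23, CYP71B24, CYP71B26, CYP71B34, CYP71B35 and CYP71B36. The 3 members elsewhere were CYP71B28 on chromosome 1, CYP71B6 on chromosome 2 and CYP71B5 on chromosome 3 outside the stretch. A further pair of genes in the stretch, CYP71B19 and CYP71B20, shared 1 probe set. The remaining 16 CYP71B genes, PAD3 among them, had neither a single-gene probe set under a CYP71B symbol nor 1 shared only among CYP71B genes. They were not analysed here.

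Most measured CYP71B genes of the stretch were dimmer in ros1-1 than in the wild type, and those that reached the floor in both genotypes differed by less than 1.5-fold. Of the 3 members elsewhere, 1 was lower and 2 were higher. The log2 ratio used here divides the ros1-1 signal by the wild-type signal, so that negative values mean a lower signal in ros1-1, and signals under the floor are raised to it first. Of the 10 members, 7 were lower and 3 higher in ros1-1, against 50.8% lower and 49.2% higher among the 14126 measured probe sets. CYP71B22 reached the floor in the wild type only, so its lower direction was fixed by the filter; without it, 6 of 9 were lower. At least 1.5-fold lower or higher were 0 of 10 members, against a background of 1.95% and 1.85%, with CYP71B22 counted at its bound. At least 2-fold differences were found in 0 members, against 0.241% of measured probe sets lower and 0.205% higher.

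In the stretch, CYP71B23 had a signal of 638 in the wild type and 451 in ros1-1, a log2 ratio of -0.50, the lowest of the 10. CYP71B24 had signals of 337 and 239 and also a log2 ratio of -0.50. These are neighbours among the measured genes, with CYP71B3, which had no single-gene probe set under its name, between them in locus order. CYP71B22, the next gene before CYP71B23, had 172 in the wild type and 105 in ros1-1, under the floor. Its log2 ratio of -0.38 is therefore a bound, and the deposited values differed by 1.64-fold. All 3 measured genes from AT3G26200 to AT3G26230 thus had their lower value in the ros1-1 array. For CYP71B22 the filter fixed this direction, so only CYP71B23 and CYP71B24 were free to go either way.

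Next in locus order came a gap of loci that are not P450 genes. After it lie CYP71B25, under the floor, and CYP71B4, which had no single-gene probe set under its name. Beyond these, the remaining members of the stretch were less alike. CYP71B34 had signals of 488 in the wild type and 363 in ros1-1, a log2 ratio of -0.43. CYP71B35, the next gene in locus order, had 229 and 189, a log2 ratio of -0.28. CYP71B26 was the brightest measured single-gene probe set of the stretch on both arrays, at 805 and 703, with a log2 ratio of -0.20. CYP71B36 was the exception, with 157 in the wild type and 197 in ros1-1, a log2 ratio of 0.33. It lies directly after CYP71B35, and these neighbours differed by 0.61 in log2 ratio, the widest gap between successive measured genes of the stretch.

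Outside the stretch, CYP71B6 had the highest signal of all members, at 1376 in the wild type and 1409 in ros1-1, a log2 ratio of 0.03. CYP71B6 acts on indole-3-acetonitrile in the formation of indole-3-carboxylic acid derivatives, compounds of the tryptophan-derived defence metabolism. CYP71B28 had 502 and 609, a log2 ratio of 0.28, the widest of these 3. CYP71B5 had 363 and 333, a log2 ratio of -0.12.

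**Figure D1:**
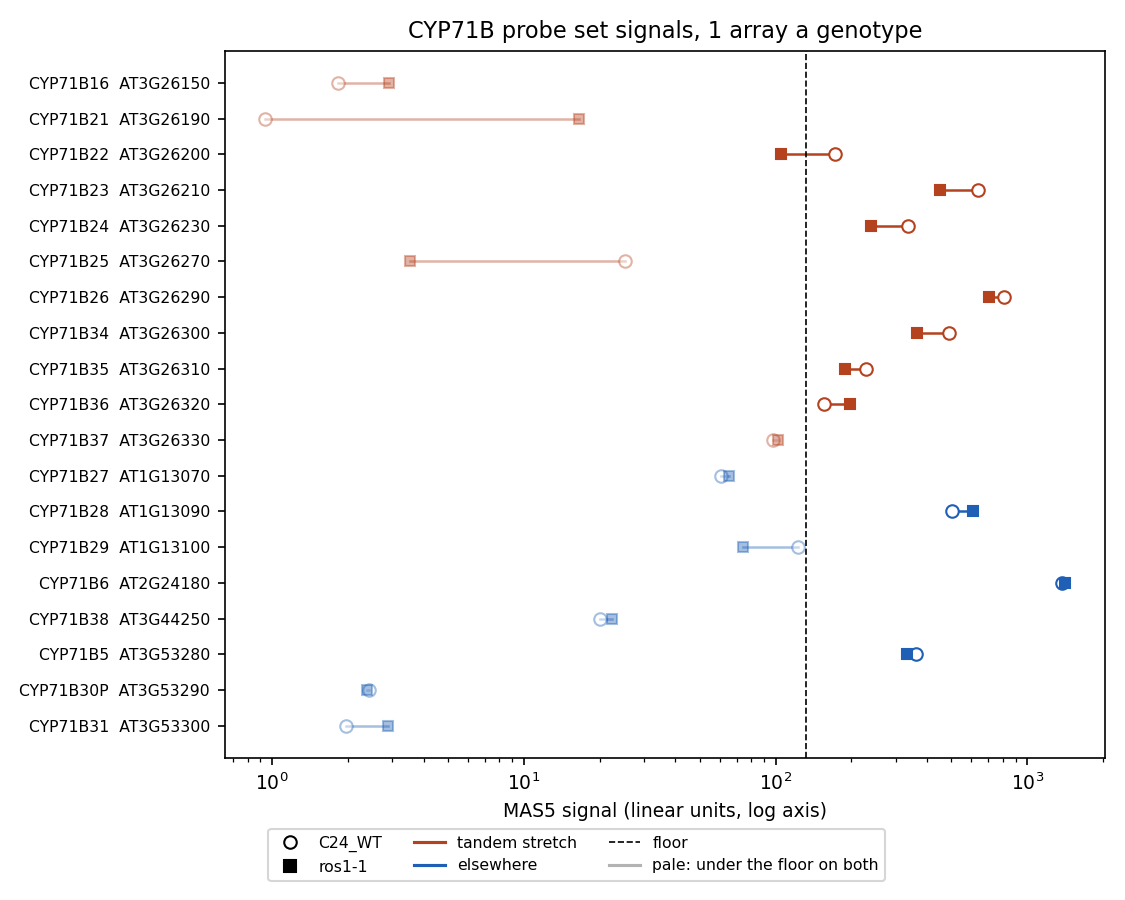
Signal of each CYP71B single-gene probe set on the C24_WT array (open circles) and the ros1-1 array (filled squares), on a log axis in linear MAS5 units, with the floor of 132 as a dashed line and 1 array a genotype. In 6 of the 7 measured genes of the stretch the square lies to the left of the circle, CYP71B36 being the exception, and the 9 pale genes lie under the floor on both arrays.

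The size of these ratios was set beside a measure of array error, since there were no replicate arrays. The SD between log2 ratios of different probe sets of 1 gene was 0.19, pooled over 61 genes for which at least 2 probe sets reached the floor in both genotypes. This SD leaves out differences between plants, RNA extractions and labelling reactions. Of the 7 genes of the stretch, 6 were lower by more than this SD, against 21.2% of measured probe sets, and 1 was higher by more than it, against 19%. Among the 11052 measured probe sets within the signal range of the members, these shares were 23.8% and 19.9%. CYP71B26, at -0.197 against an SD of 0.192, was just past it. Without CYP71B22, 5 of 6 genes of the stretch were lower by more than the SD. The count of 6 was 5 after median centring, quantile normalization or removal of the intensity trend, and 4 when an offset was added instead of applying the floor. An offset draws ratios towards 0, while the SD comes from ratios with the floor, so this count of 4 is not on the same scale. With the floor at the 60th percentile, 3 of 4 measured genes of the stretch were lower by more than the SD. Elsewhere, 0 of 3 members were lower and 1, CYP71B28, was higher by more than the SD. This 0 depends on the floor. With the floor at the 25th percentile, CYP71B29, also outside the stretch, was measured and was lower by more than the SD, at -0.73. At that floor, 6 of 8 genes of the stretch were lower by more than the SD. In the whole set of measured probe sets, 3.48% had a log2 ratio as low as that of CYP71B23 or lower, and 3.65% as low as that of CYP71B24.

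The median log2 ratio was -0.38 in the stretch, 0.03 in the members elsewhere and -0.01 over all measured probe sets. The median of the stretch is the bound of CYP71B22, and it was -0.35 without that gene and -0.43 with no floor. The stretch minus elsewhere difference of medians was -0.41. It rests on 7 and 3 genes of the same 2 RNA samples, and the stretch was singled out with these values known, so it is given as a description with no test. The SD of the log2 ratios was 0.29 among the genes of the stretch and 0.20 among the 3 elsewhere, against 0.27 over all measured probe sets. Within the stretch the median was -0.50 for the 3 measured genes from AT3G26200 to AT3G26230 and -0.24 for the 4 from AT3G26290 to AT3G26320. The first of these medians includes CYP71B22, whose direction was fixed by the filter.

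**Figure D2:**
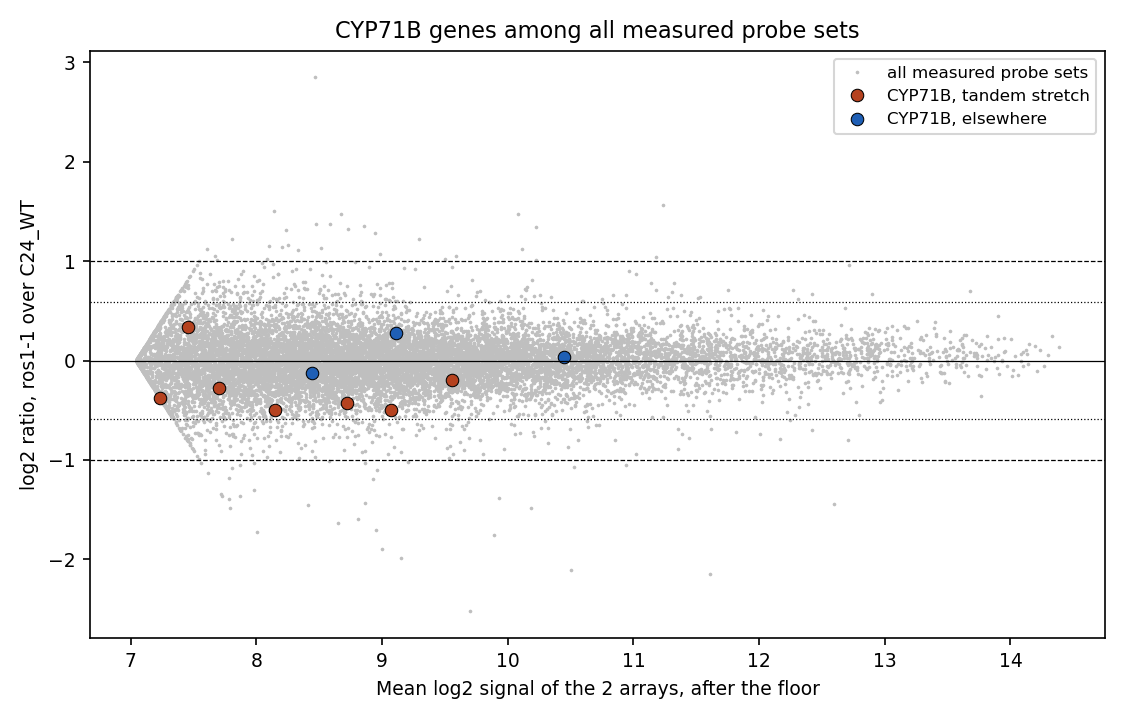
Log2 ratio of ros1-1 over C24_WT against the mean log2 signal of both arrays after the floor, for 14126 measured probe sets (grey) and the 10 CYP71B members (coloured), with dotted lines at 1.5-fold and dashed lines at 2-fold. After the floor, all 10 members lie inside the dotted lines, and 6 of the 7 genes of the stretch lie under 0.

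Within each array, the members spread over the middle and upper part of the signal range. The floor at the 40th percentile, which each member had to reach on at least 1 array, largely fixed this place. The signals of the stretch lay between percentiles 43.2 and 80.7 of all probe sets on the wild-type array and between 35.8 and 78.5 on the ros1-1 array. Those of the 3 members elsewhere lay between 62.7 and 89.2 and between 60.6 and 89.5. The median percentile of the stretch was 60.8 in the wild type and 52.7 in ros1-1, and that of the members elsewhere was 70.7 and 75.4. A probe set's brightness depends on its own probes as well as on the transcript, so these places on the array do not rank the genes by transcript level.

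The same order of signals was largely kept between the arrays. The Spearman correlation of the 10 signals was 0.952, a correlation across genes that share the same 2 arrays. CYP71B6 and CYP71B26 were first and second on both arrays. CYP71B23 went from rank 3 to rank 4 and changed places with CYP71B28. CYP71B36 went from rank 10 in the wild type to rank 8 in ros1-1, and CYP71B22 from rank 9 to rank 10. Summed over the stretch, the signal was 2827 in the wild type and 2247 in ros1-1, or 79.5% of the wild-type sum. The sum over the 3 members elsewhere was 2241 and 2351, or 104.9%. The stretch thus gave 55.8% of the summed signal of the members in the wild type and 48.9% in ros1-1. These are shares of signal and not of transcript, since brightness differs between probe sets. CYP71B6 alone gave 1376 of the 2241 elsewhere in the wild type, and the sums of the stretch include CYP71B22. With the probe set shared by CYP71B19 and CYP71B20, the brightest of the stretch, the ros1-1 sum of the stretch was 86.6% of the wild-type sum, and its share was 62.6% and 58.0%.

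Among the 20 genes on either side of the stretch, 13 were higher in ros1-1, against 49.2% of all measured probe sets. Of the 10 measured genes before the stretch in locus order, 3 were lower and 7 higher in ros1-1, with a median log2 ratio of 0.07. Of the 10 after it, 4 were lower and 6 higher, also with a median of 0.07. Both medians are smaller than the probe set SD of 0.19, but that SD describes single probe sets and not the error of a median over 10 genes. The ratios of these 20 genes ran from -0.40 for AT3G26460, at 181 in the wild type and 137 in ros1-1, to 0.50 for AT3G26360, at 204 and 288. The nearest measured gene before the stretch, AT3G26100, had a log2 ratio of -0.02. AT3G26360, the nearest after it, lies beyond CYP71B36, the member with the highest ratio of the stretch. Inside the stretch, 0 genes other than CYP71B genes had a single-gene probe set. The shared probe set of AT3G26240 and AT3G26250, loci in the gap, had signals of 28.1 and 19.0, both under the floor.

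Genes that follow each other in the stretch had ratios about as far apart as neighbours in general. The 6 pairs of successive measured genes of the stretch differed by 0.01 to 0.61 in log2 ratio, with a median of 0.19. Over 7440 pairs of successive measured genes of the whole array, the median was 0.23. The closest pair was CYP71B23 and CYP71B24.

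**Figure D3:**
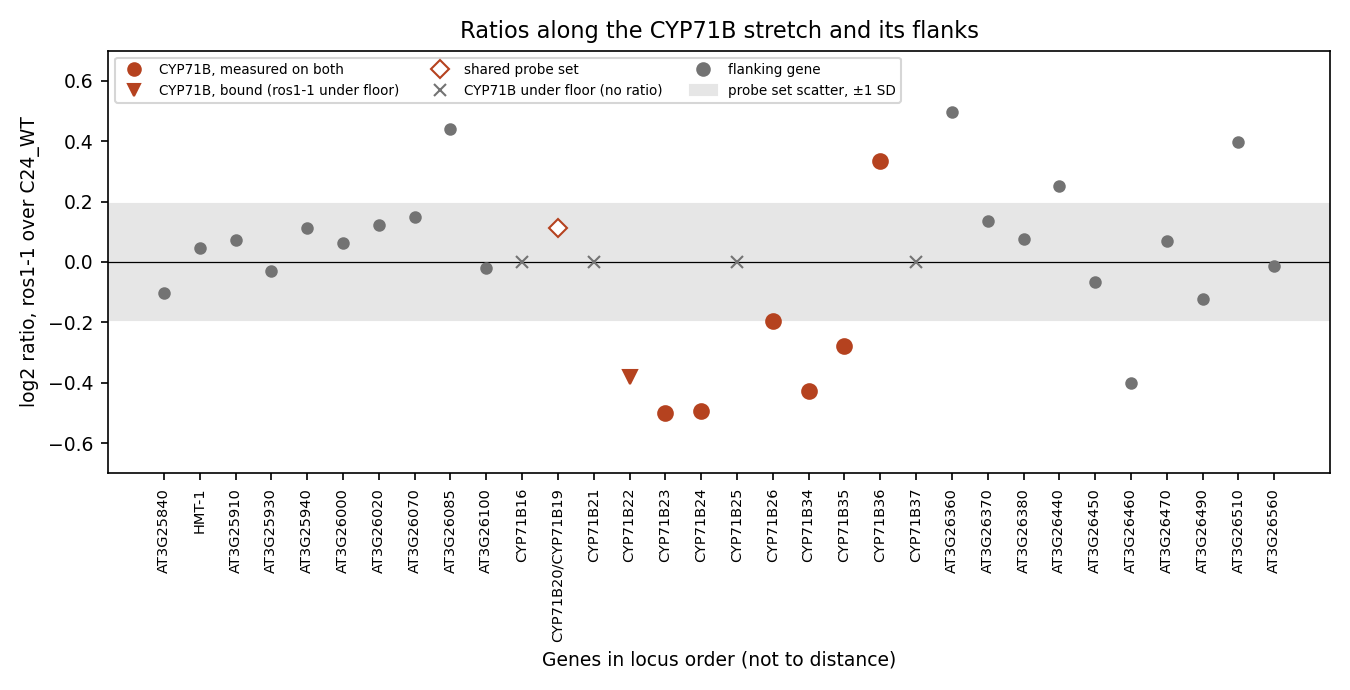
Log2 ratio of ros1-1 over C24_WT for the measured CYP71B genes of the stretch (coloured) and the 10 measured genes on each side (grey dots). Genes are in locus order and not to distance, with the band of 1 SD of probe set scatter, 0.19, in grey. Grey crosses at 0 are CYP71B genes under the floor, which have no ratio. The open diamond is the probe set shared by CYP71B19 and CYP71B20. The measured genes from CYP71B22 to CYP71B35 lie at or under the lower edge of the band, while CYP71B36 and most flanking genes do not.

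Not every CYP71B signal of the stretch was lower in ros1-1. The probe set shared by CYP71B19 and CYP71B20 had 928 in the wild type and 1004 in ros1-1, a log2 ratio of 0.11. It was brighter on both arrays than any single-gene probe set of the stretch, and its signal cannot be divided between these genes. With it counted, 6 of 8 measured probe sets of the stretch were lower. Tandem copies are similar in sequence, so a probe set that names 1 gene may also take signal from its neighbours, and this was not tested, as no probe or gene sequences were used here.

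The other 9 CYP71B genes were under the floor on both arrays, and no ratio is drawn from them. In the stretch these were CYP71B16, CYP71B21, CYP71B25 and CYP71B37, and elsewhere CYP71B27, CYP71B29, CYP71B30P, CYP71B31 and CYP71B38. CYP71B27 is annotated as a transcribed pseudogene, and CYP71B31 is known for linalool metabolism in flowers. The genes nearest to the floor from below were CYP71B29, at 123 in the wild type and 74.2 in ros1-1, and CYP71B37, at 98.1 and 102.4. Just inside it were CYP71B36 and CYP71B22, whose brighter signals were 197 and 172. CYP71B16, CYP71B30P and CYP71B31 had signals between 1.83 and 2.91 on both arrays. CYP71B21 had 0.936 and 16.5, and CYP71B25 had 25.2 and 3.52, pairs whose ratios are not interpretable so far under the floor. CYP71B27 was at 60.7 and 65.1, and CYP71B38 at 20.0 and 22.4.

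Other genes of P450 metabolism were thinly covered. Besides CYP71B, 7 single-gene probe sets had a symbol that begins with CYP and a digit, of which 2, CYP71 and CYP59, are cyclophilins by the gene table and not P450 enzymes. Of the 5 P450 genes, 4 were under the floor on both arrays, namely CYP84A4, CYP79A2, CYP718 and CYP51G2. CYP78A9, of a P450 family that affects organ growth and seed size, had 183 in the wild type and 130 in ros1-1. The latter is just below the floor, so its log2 ratio of -0.47 is a bound. Measured members were 0 of 18 in the list for camalexin and other tryptophan-derived defence, 0 of 10 P450 electron donors and 0 of 11 genes of volatile and terpene metabolism. None of these had a single-gene probe set matched to the gene table, and probe sets naming several genes were not searched for them. Of 14 genes of aliphatic glucosinolate synthesis, 2 were measured and 0 differed by 1.5-fold. The glucosyltransferase gene UGT74B1, which acts late in building the glucosinolate core, had 1531 and 1316, a log2 ratio of -0.22. BCAT4, an aminotransferase of the side-chain extension of methionine, had 5901 and 5424, a log2 ratio of -0.12. AOP3, a side-chain modifying enzyme, was under the floor.

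The trimmed mean signal was 500.04 on both arrays, and 59.96% and 60.04% of the 22746 probe sets reached the floor. Of the tissue markers listed, 2 of 10 green tissue symbols and 3 of 11 root symbols had a single-gene probe set. All of these were above the floor on both arrays, and 0 of 8 flower and seed markers had such a probe set. Green tissue markers summed to 33261 in the wild type and 33922 in ros1-1, with log2 ratios of 0.21 for RCA and -0.15 for LHCB4.1. Root markers summed to 13445 and 14296, with log2 ratios of 0.08 for PYK10, 0.33 for EXPA7 and 0.51 for EXPA18. The part of tissue proportions in the CYP71B ratios was not tested.

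**Figure D4:**
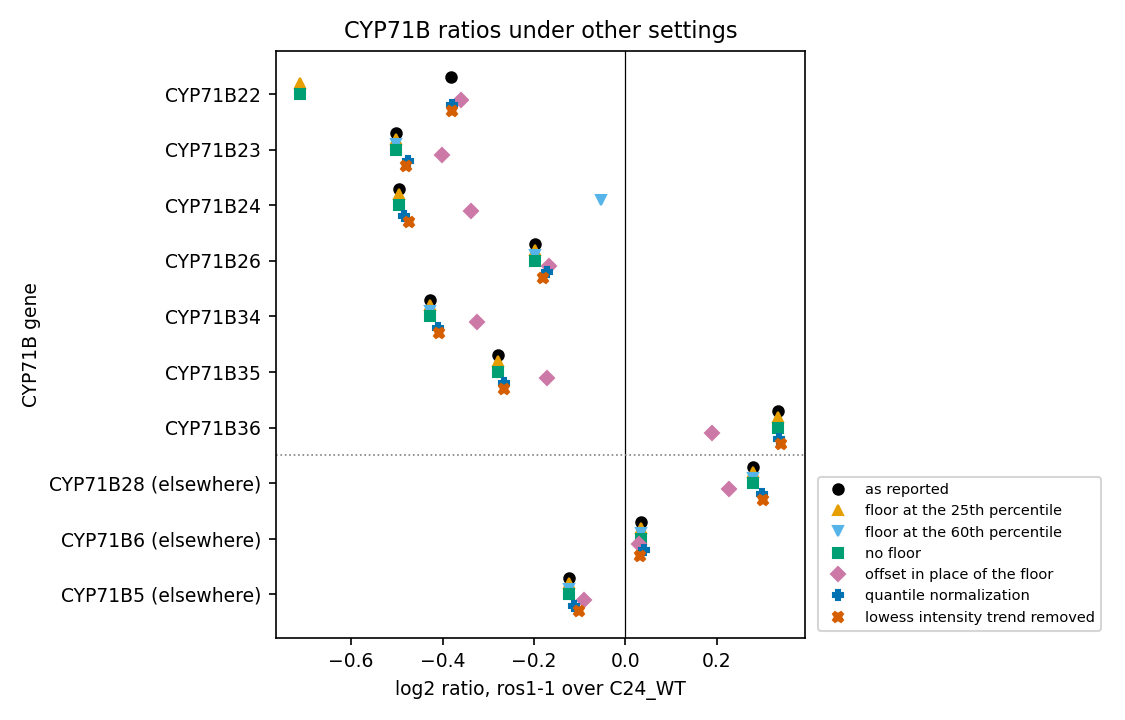
Log2 ratio of ros1-1 over C24_WT for each CYP71B member under 7 settings of the floor, the offset and the scaling, with the genes elsewhere under the dotted line. Each gene keeps its side of 0 where it is measured, CYP71B22 moves from -0.38 to -0.71 with a lower floor or none, and CYP71B24 moves from -0.50 to -0.05 with the floor at the 60th percentile.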

How the data were processed

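The authors deposited 1 table of linear MAS5 signal intensities, per the submitters' processing notes and the values; the version, scaling target and detection calls: not given in the sources used here. Groups came from the labels. Of 22810 probe sets, 64 were controls and left out. The platform annotation gave 1 gene for 13513 probe sets, several for 503 and none for 8730; 13436 of the 13513 were found in the TAIR10.1 gene table, used for names and order only. Signals below the 40th percentile of both arrays, 132, were raised to it; a gene was measured if its brighter array reached it. All single-gene CYP71B probe sets were named, and at most 4 genes a list. Flanking genes, the shared probe set and the cyclophilins were named after their values were seen. The members and lists were chosen with earlier results of these data known. The steps were tested on simulated data with 200 changed probe sets (Python 3.11.15, pandas 2.3.3, statsmodels 0.14.6). Alternatives were other floors, no floor, an offset equal to the floor, median centring, quantile normalization, lowess (span 0.3), plain _at probe sets, means of probe sets, the shared probe set and, added after seeing the data, only genes above the floor on both arrays. The planned look at protein identity and promoter motifs was not run.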

Additional observations from a re-analysis of the deposited data

How the results depend on the processing

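The treatment of low signals moved the results most. At least 1.5-fold lower were 2 members with the floor at the 25th percentile, a signal of 54.4, and 1 with no floor, against 0 as reported. These were CYP71B22 in both cases, at a log2 ratio of -0.71, and CYP71B29, which lies outside the stretch, counts as measured at the lower floor only and was then the lowest of 13 members, at -0.73. With the floor at the 60th percentile, a signal of 325, 7 members were measured, and CYP71B24 went from -0.50 to -0.05, as its ros1-1 signal was raised to the floor. When an offset replaced the floor, CYP71B35 went from -0.28 to -0.17 and CYP71B36 from 0.33 to 0.19, and CYP71B26 stood at -0.17, all within the probe set scatter. That scatter comes from ratios with the floor, and an offset draws ratios towards 0. Of 106 values of single genes under the alternatives, 103 moved by less than 0.19, and all 106 kept their direction, which a floor or an offset cannot reverse. Many of these values could not move. Plain _at probe sets, means of probe sets, the added shared probe set and the limit to both arrays keep the reported gene ratios. A lower floor or none moves only genes with a signal under the reported floor. Rescaling moved no ratio or median by more than 0.03, which put CYP71B26 within the scatter under all 3 rescalings. Plain _at probe sets and the mean of probe sets gave the reported values, since each member has 1 plain _at probe set. No paired analysis was possible because each genotype has 1 array, and no replicate could be left out. Signals near the floor limit CYP71B22, CYP71B35 and CYP71B36 most.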
